A study of Rattus norvegicus with 12 samples.

Results

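The genes described here are the proteasome genes measured on a rat expression array: those whose symbol starts with Psma, Psmb, Psmc, Psmd, Psme, Psmf or Psmg followed by a digit. A probe set is the group of short oligonucleotides that reads out a transcript, and each gene was represented by the singly named probe set with the highest mean over the 12 arrays. This gave 46 of the 14217 genes named on the array. Of the 46, 44 encode a subunit, an activator, an assembly chaperone or an inhibitor of the proteasome. The others, Psmc3ip (a cofactor of meiotic recombination) and Psme3ip1 (a protein that binds the nuclear activator PSME3), are none of these and were matched by name. Psmb6, a standard catalytic subunit, and Psme3, the nuclear activator, have no probe set of their own under this rule because their probe sets are annotated with further genes as well. All 46 genes passed the filter on dim probe sets in every comparison.

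The 26S proteasome degrades proteins that carry ubiquitin chains. Its 20S core is a barrel of outer alpha rings and inner beta rings, and proteolysis is done by the beta subunits Psmb5, Psmb6 and Psmb7. A 19S cap sits on the barrel. Its base holds ubiquitin receptors and a ring of ATPases that unfolds the substrate, and its lid removes ubiquitin. Interferon gamma induces Psmb8, Psmb9 and Psmb10, which replace the standard catalytic subunits in the immunoproteasome, and Psme1 and Psme2, which form the 11S activator PA28. The peptides so produced are loaded on MHC class I molecules. The transcription factor NRF1 (Nfe2l1) raises the standard subunit genes together when proteasome activity falls.

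RNA came from liver and renal cortex of male rats aged 7 to 9 weeks, which the labels call F-344 and also Wistar-derived. Treated rats received trichloroethylene (TCE), a chlorinated solvent metabolised in liver and kidney, by mouth at 16 mg/kg/day for 3 days, with corn oil as the vehicle at 5 ml/kg; the control group was given corn oil without TCE. Tissue was taken 24 h after the final dose. Each of the 4 groups (liver or kidney, TCE or control) has 3 arrays, 12 in all, and the labels do not say whether a liver and a kidney array with the same number come from the same rat. Values are on a log2 scale and reach from 2.17 to 16.5. The p-values weigh a difference of means against the spread between the few arrays of each group. Arrays of a group correlated at 0.993 to 0.997 across probe sets. All 14 hepatocyte markers were higher in control liver than in control kidney, and 13 of the 14 renal tubule markers tested were lower. Kidney arrays carried unequal hepatocyte signal: albumin (Alb) read 12.80 in control kidney replicate 2, and 9.89, 7.84, 10.96, 4.36 and 6.31 in the others. In bulk tissue, more cells of a type and more RNA per cell cannot be told apart.

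Promoters are shown first for the interferon-inducible members, because their catalytic subunits had the largest median tissue difference of any role, with the standard subunit Psmb5 for contrast. The windows are RefSeq's, build GRCr8, from 250 bases before to 50 bases after the annotated start, 5′ to 3′ on the gene's strand, and 42 of the 46 genes have such a window. These motifs were searched on both strands. They are the core of the interferon-stimulated response element, GAAANNGAAA, and the core of the antioxidant response element, TGACNNNGC, which NRF1 and its relative NRF2 bind. Capitals mark matches to either motif. The windows lie at chr20:4656982-4657281 (minus strand), chr19:50743243-50743542 (minus), chr15:33052702-33053001 (minus), chr20:4668750-4669049 (plus) and chr15:32047330-32047629 (minus).
Psmb8: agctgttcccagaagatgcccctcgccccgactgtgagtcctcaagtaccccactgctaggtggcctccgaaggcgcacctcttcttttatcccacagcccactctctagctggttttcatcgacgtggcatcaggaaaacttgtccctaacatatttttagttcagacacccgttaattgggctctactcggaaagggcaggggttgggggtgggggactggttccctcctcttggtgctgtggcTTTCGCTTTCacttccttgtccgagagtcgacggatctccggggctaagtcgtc
Psmb10: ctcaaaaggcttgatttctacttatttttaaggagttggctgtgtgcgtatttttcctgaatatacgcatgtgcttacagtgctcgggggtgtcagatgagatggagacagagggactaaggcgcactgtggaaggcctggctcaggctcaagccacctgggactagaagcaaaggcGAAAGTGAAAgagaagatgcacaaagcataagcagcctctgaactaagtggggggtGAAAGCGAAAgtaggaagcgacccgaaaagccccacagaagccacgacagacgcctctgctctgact
Psme2: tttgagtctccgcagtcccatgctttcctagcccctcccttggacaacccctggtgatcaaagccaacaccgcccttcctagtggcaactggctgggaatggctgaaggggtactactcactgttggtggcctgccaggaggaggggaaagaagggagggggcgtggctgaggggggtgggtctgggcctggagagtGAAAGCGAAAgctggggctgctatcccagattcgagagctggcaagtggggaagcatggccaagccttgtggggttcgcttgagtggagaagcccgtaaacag
Psmb9: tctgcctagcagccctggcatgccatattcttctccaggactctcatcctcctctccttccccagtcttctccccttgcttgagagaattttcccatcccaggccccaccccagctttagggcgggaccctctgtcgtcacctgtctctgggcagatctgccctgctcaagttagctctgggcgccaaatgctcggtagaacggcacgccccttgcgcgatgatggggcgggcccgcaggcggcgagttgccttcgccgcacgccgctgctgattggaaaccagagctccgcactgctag
Psmb5: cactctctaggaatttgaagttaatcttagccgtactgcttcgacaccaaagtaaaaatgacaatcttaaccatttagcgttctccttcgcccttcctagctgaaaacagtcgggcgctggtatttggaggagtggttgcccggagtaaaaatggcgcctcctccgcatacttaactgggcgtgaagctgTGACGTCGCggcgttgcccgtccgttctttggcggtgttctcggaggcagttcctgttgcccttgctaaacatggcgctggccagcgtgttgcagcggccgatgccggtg

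Positions count from the annotated start, with negative numbers upstream. The Psmb8 window holds an interferon motif at -4, on the opposite strand. Psmb10 holds 2, at -73 and -17, and Psme2 holds 1, at -53. The Psmb5 window holds an antioxidant motif at -60. Psmb9 and Psme1 have no match in the window, which says only that these letters do not occur there. The interferon motif was found in 3 of the 5 genes for inducible subunits and PA28, in 7 of the 42 members with a window (16.7%; the others are Psma4, Psmb3, Psmd7 and Psmg4) and in 3.92% of all 33469 promoter windows. The antioxidant motif occurred in 7 of 42 members, or 16.7% (Psma3, Psmb2, Psmb5, Psmd1, Psmd3, Psmd9 and Psme4), against 12.1% of all windows. Such a match is a description, not a site or a cause. The CCAAT box, searched as CCAAT on both strands, occurred in 22 of 42 (52.4%) against 37.5%. In the gene table of the same build, Psmb8 and Psmb9 lie beside the peptide transporter genes: the order on chromosome 20 is Tap2, Psmb8, Tap1, Psmb9, RT1-DMb, and on chromosome 15 Psme1, Emc9, Psme2, Rnf31, Irf9.

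The first comparison was between the tissues, in control rats and again in the treated rats, which are other animals. The inducible catalytic subunits had the largest median difference of any role: all 3 were higher in liver, Psmb8 by the most. Psmb8, the inducible counterpart of Psmb5, read 11.69, 11.83 and 12.00 in control livers and 7.03, 7.45 and 7.21 in control kidneys. In treated rats it read 11.79, 12.35 and 11.89 in liver and 7.70, 7.14 and 7.02 in kidney. Liver and kidney arrays were far apart, with no overlap in either set of rats. The log2 difference was 4.61 ± 0.14 (SE) in controls, or 24.4-fold (limma adjusted p = 1.72e-06), and 4.72 ± 0.23 in treated rats, or 26.4-fold (adjusted p = 1.18e-05).

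Psmb9, the inducible counterpart of Psmb6, read 11.12, 11.27 and 11.62 in control livers against 8.35, 8.57 and 8.73 in control kidneys. In treated rats its values were 11.19, 12.27 and 11.31 in liver and 8.98, 8.88 and 9.02 in kidney. All liver arrays lay above all kidney arrays. The difference was 2.78 ± 0.17 (SE) on the log2 scale in controls, 6.89-fold (limma adjusted p = 2.91e-05), and 2.63 ± 0.29 in treated rats, 6.19-fold (adjusted p = 0.000425). Psmb10, the inducible counterpart of Psmb7, read 8.56, 8.97 and 9.04 in control livers and 6.85, 7.31 and 6.87 in control kidneys. Its difference of 1.85 ± 0.19 (SE), 3.60-fold, was followed by 2.07 ± 0.23, 4.21-fold, in treated rats (limma adjusted p = 0.000285 and 0.000439).

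**Figure D1:**
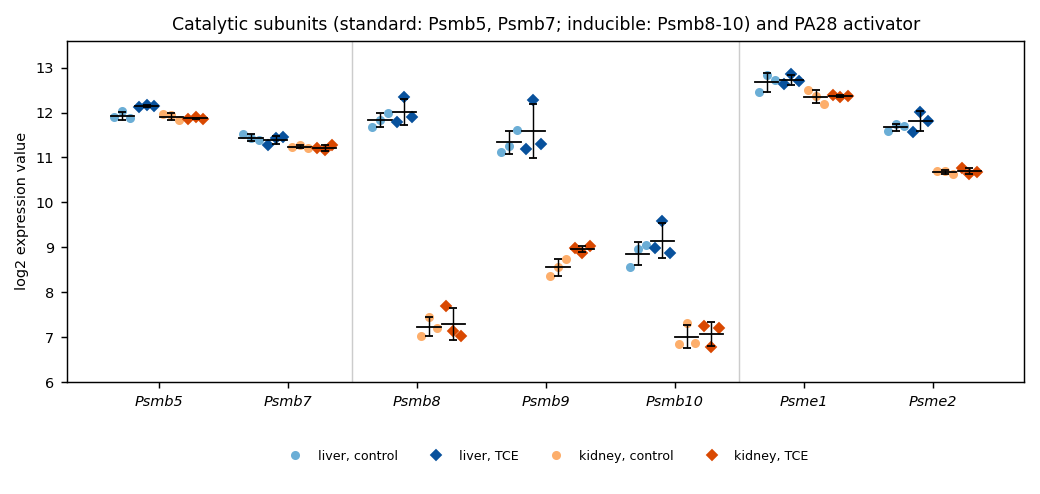
Log2 expression value of each array (points) with group mean and SD (bars, n = 3) for the standard catalytic subunits Psmb5 and Psmb7, the inducible subunits Psmb8, Psmb9 and Psmb10, and the activator genes Psme1 and Psme2. Liver and kidney lie 4.61 log2 units apart for Psmb8 in control rats and 0.02 apart for Psmb5; values of different genes come from different probes, so only values within a gene can be compared.

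The standard counterparts differed less, by an amount that the scaling of the arrays moved. Psmb5, the chymotrypsin-like subunit, read 11.89, 12.03 and 11.87 in control livers and 11.96, 11.94 and 11.84 in control kidneys, a range in which the tissues overlap. The difference was 0.02 log2 units with a 95% interval of -0.18 to 0.22 in controls. In treated rats it was 0.27 (0.11 to 0.42, limma adjusted p = 0.0102), with liver at 12.12, 12.17 and 12.14 and kidney at 11.86, 11.89 and 11.86. Averaging that probe set with further Psmb5 probe sets, which sat at 2.17 to 2.19 on all arrays, ended the call, at 0.09. With each array centred on its median Psmb5 was higher in liver by 0.43 in controls and 0.65 in treated rats, past the threshold in both. Psmb7, the trypsin-like subunit, was higher in control liver by 0.21 (0.03 to 0.39, limma adjusted p = 0.0406), and its 0.17 in treated rats (-0.03 to 0.37) did not pass. The Psmb7 call in controls was lost under 3 other settings and when any of 5 single arrays was left out. With centred arrays Psmb7 stood at 0.62 and 0.56 and passed in both sets.

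The PA28 genes showed unequal differences. Psme2, the beta chain, read 11.58, 11.75 and 11.69 in control livers and 10.70, 10.70 and 10.63 in control kidneys. The tissues did not overlap, and the difference was 0.99 ± 0.07 (SE), 1.99-fold, in controls and 1.11 ± 0.13, 2.16-fold, in treated rats (limma adjusted p = 7.68e-05 and 0.000482). Psme1, the alpha chain, read 12.45, 12.85 and 12.72 in control livers and 12.50, 12.36 and 12.20 in control kidneys, which overlap. Its difference of 0.32 (-0.02 to 0.65) did not pass in controls (limma adjusted p = 0.0818). It did without control liver replicate 1, at 0.43 (adjusted p = 0.0275), and with centred arrays, at 0.73. The 0.36 in treated rats (0.15 to 0.56) passed (limma adjusted p = 0.0102). Psme4, the PA200 activator of the core, was higher in liver by 0.80 ± 0.09 in controls and 0.88 ± 0.08 in treated rats, past the threshold in both.

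The regulators Psmd9 and Psmf1, outside the core and cap proper, also differed by more than 2-fold in both sets of rats, read by their brightest probe sets. Psmd9, a chaperone that helps to assemble the base of the cap, read 9.53, 9.11 and 9.09 in control livers and 6.74, 6.81 and 6.19 in control kidneys. The log2 difference was 2.66 ± 0.21 (SE), 6.33-fold, in controls and 2.33 ± 0.15, 5.02-fold, in treated rats (limma adjusted p = 0.000102 and 4e-05). A dimmer Psmd9 probe set gave 0.43 and 0.55, the same direction at a smaller size. Psmf1, the inhibitor PI31, read 11.78, 11.75 and 11.73 in control livers and 10.15, 10.04 and 10.10 in control kidneys. Its difference was 1.66 ± 0.07, 3.16-fold, in controls and 1.85 ± 0.11, 3.60-fold, in treated rats (limma adjusted p = 5.57e-06 and 2.32e-05).

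The other cap chaperones, Psmd5 and Psmd10, did not pass in either set of rats, with 0.28 and -0.05 log2 units in controls. Of the 4 chaperones that build the core, Psmg1, Psmg3 and Psmg4 were higher in liver in both sets. Psmg1 was higher by 1.17 ± 0.11 (SE) in controls and 0.87 ± 0.10 in treated rats. Psmg2, the partner of Psmg1 in a heterodimer, had the opposite sign: it read 9.03, 8.90 and 8.54 in control livers and 9.10, 9.27 and 9.37 in control kidneys. Its difference was -0.42 ± 0.15 in controls and -0.58 ± 0.12 in treated rats (limma adjusted p = 0.0471 and 0.00683). With each array centred on its median Psmg2 stood at -0.01 and -0.19 and no longer passed, and the control call was also lost without any of 5 single arrays.

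In the core, the 4 beta subunits without an active site were all higher in liver in both sets of rats. Psmb2 led, at 1.23 ± 0.09 (SE) log2 units in controls and 0.99 ± 0.13 in treated rats. It read 11.75, 11.71 and 11.58 in control livers against 10.44, 10.58 and 10.34 in control kidneys, with no overlap. Psmb3 followed at 0.63 and 0.48, then Psmb1 at 0.39 and 0.23 and Psmb4 at 0.35 and 0.33. Of the 7 alpha subunits measured, Psma4, Psma5 and Psma6 were higher in liver in both. Psma5 differed by 0.88 ± 0.10 in controls and 0.60 ± 0.11 in treated rats. Psma1, Psma2 and Psma3 did not pass in either, and Psma7 was lower in control livers only (-0.19 ± 0.07, limma adjusted p = 0.0444). The sign of Psma7 turned to 0.22 with centred arrays.

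Among the 6 ATPases of the cap base, Psmc1, Psmc3, Psmc4, Psmc5 and Psmc6 were higher in liver in both sets of rats, by 0.27 to 0.72 log2 units in controls and 0.35 to 0.84 in treated rats. Psmc2 was lower in control liver (-0.27 ± 0.08, limma adjusted p = 0.0255) and at -0.19 (adjusted p = 0.0528) in treated liver. Of the other base subunits, the scaffold Psmd1 and the ubiquitin receptor Psmd4 were higher in both. The scaffold Psmd2 was lower in control livers only (-0.22 ± 0.06). With centred arrays Psmc2 stood at 0.14 and Psmd2 at 0.19 in controls.

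Of the 8 lid subunits, Psmd7, Psmd8, Psmd11 and Psmd14 were higher in liver in both sets of rats. Psmd7, the partner of the deubiquitinase Psmd14 in the lid, read 11.40, 11.39 and 11.38 in control livers and 10.70, 10.70 and 10.74 in control kidneys, a difference of 0.68 ± 0.06 (SE). Psmd8 differed by 0.81 ± 0.08 in controls and 0.30 ± 0.10 in treated rats. Psmd14 differed by 0.67 and 0.39, and its dimmer probe set gave 0.84 and -0.14. Psmd3, Psmd12 and Psmd13 did not pass in either set, and Psmd6 was lower in treated livers only (-0.49 ± 0.12, limma adjusted p = 0.0131). The genes matched by name only were lower in liver in both: Psme3ip1 by -0.64 ± 0.10 and -0.65 ± 0.10, and the dim Psmc3ip by -0.79 ± 0.26 and -0.69 ± 0.25. Their values were 8.23, 8.42 and 8.20 against 8.95, 9.01 and 8.80 in control rats for Psme3ip1, and 4.39, 4.65 and 3.81 against 5.38, 4.77 and 5.07 for Psmc3ip, with no overlap. With centred arrays neither passed. Psmc3ip also lost its call in both sets with quantile normalization, with dim genes left in and with a replicate block, and without replicate 1 or 3 of either tissue in control rats and without replicate 2 or 3 of either tissue in treated rats.

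**Figure D2:**
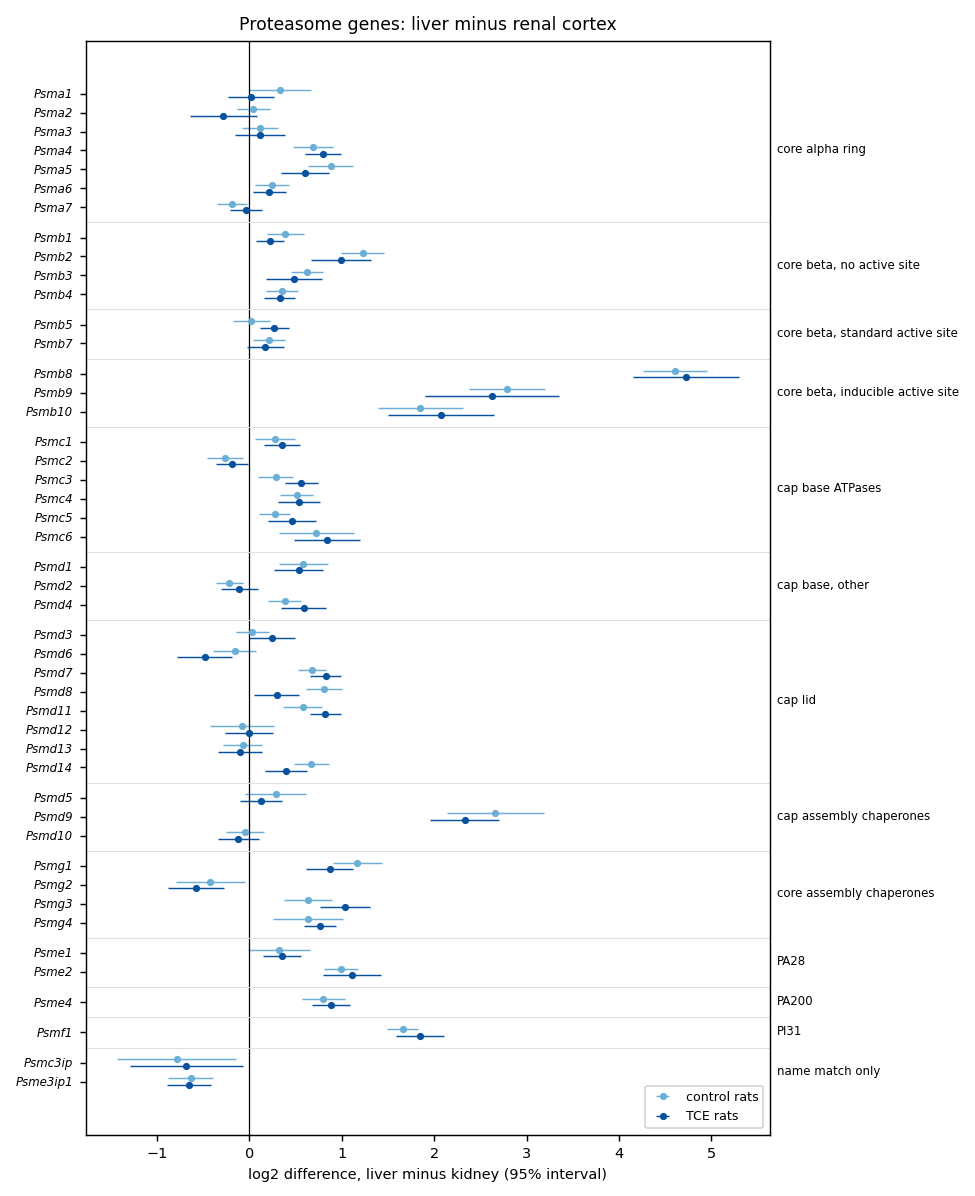
Log2 difference between liver and renal cortex of each of the 46 genes, grouped by role, with limma's 95% interval, in control rats (light) and treated rats (dark), 3 arrays per tissue each. Psmb8, Psmb9, Psmb10, Psmd9 and Psmf1 lie beyond 1 log2 unit in both sets of rats, and 28 genes were called higher in liver in both.

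In counts, 35 of the 46 members passed an adjusted p of 0.05 in control rats, 29 higher and 6 lower in liver. Over all 10654 genes tested, 68.6% passed, 29.7% higher and 38.9% lower. In treated rats 34 members passed, 30 higher and 4 lower, against 67.6% of all genes, 30.8% higher and 36.8% lower. The members past the threshold the same way in both sets numbered 31, 28 higher and 3 lower, against 58.6% of all genes, 25.8% higher and 32.8% lower. Past the threshold and more than 2-fold apart in both were 5 members, none of them lower in liver, against 34.1% of all genes, 14.4% higher and 19.7% lower: Psmb8, Psmb9, Psmb10, Psmd9 and Psmf1. The median log2 difference of the members was 0.37 in both sets, and that of all genes tested was -0.10 in controls and -0.05 in treated rats. For the 30 standard subunits of core and cap the median was 0.31 in both, and 18 of them passed in both sets, all higher in liver. Leaving out single arrays moved the 6 lower members of the control rats to 2 (without liver replicate 3, kidney replicate 1 or kidney replicate 3) or 3 (without replicate 2 of either tissue).

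How arrays are scaled bears on the small differences. The median over all probe sets was lower in liver arrays. Array medians ran from 3.51 to 3.96, far below the level of most members, with a lowest value of 2.17. Centring each array on its median moved the median difference of all genes to 0.32 in controls and 0.33 in treated rats. Members higher in liver then numbered 40 in each set, against 49.3% and 50.1% of all genes. Members lower numbered 0 in each, against 26.6% and 26.1% of all genes. With quantile normalization applied again, 24 were higher and 5 lower in controls, against 37% and 35.5% of all genes. In treated rats 27 were higher and 4 lower, against 38% and 34.3%. Across the scalings and both sets of rats, the difference of Psmb8 was 4.61 to 5.11, that of Psmb9 2.63 to 3.19 and that of Psmb10 1.85 to 2.46. Psmd9 ranged from 2.33 to 3.07, Psmf1 from 1.56 to 2.23 and Psme2 from 0.87 to 1.5.

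Genes that act with the proteasome, from lists of the pathway, were set beside these differences. At an adjusted p under 0.05, 29.7% of all genes tested were higher in control liver and 38.9% lower. Of 16 MHC class I processing genes tested, 11 were higher in control liver and 0 lower. The peptide transporter Tap1, which lies between Psmb8 and Psmb9, was higher by 2.80 and the class I gene RT1-S3 by 3.37. Of 25 interferon response genes 20 were higher and 0 lower, with a median of 1.56 over the 25. Bst2, an interferon-induced membrane protein, stood at 3.66 and Ifi27 at 2.98. Of 10 further subunits and assembly factors 6 were higher and 1 lower, and Ube3c, a ubiquitin ligase that associates with the proteasome, was higher by 0.98. The 12 genes around NRF1 split evenly, 5 higher and 5 lower: Nfe2l1 itself was lower in liver by -1.18, and Sel1l, a scaffold of the degradation complex in the endoplasmic reticulum, was higher by 2.32. Ubiquitin and shuttle factor genes gave 3 higher and 3 lower of 10, with the shuttle factors Rad23b at 1.12 and Ubqln4 at -1.07.

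Markers of other cell types moved with the tissue as well, beside 29.7% of all genes higher and 38.9% lower in control liver. All 11 macrophage markers tested passed between control tissues, 10 higher in liver and 1 lower (Lyz2), with a summed linear level of 14121 to 16426 in control livers and 8080 to 9785 in control kidneys. The Kupffer cell markers Cd5l and Clec4f and the scavenger receptor Cd163 lay between 2.18 and 3.62 on the kidney arrays, near the lowest value of the table. The list of MHC class II and dendritic cell markers went the other way: 8 of 9 were lower in control liver. The summed level over the 10 genes of the list was 3940 to 6565, against 16852 to 19440 in kidney. Of the 15 lymphocyte and NK cell markers on the array, 5 passed the filter between control tissues and 4 were higher in liver, with a summed level over the 15 of 488 to 517 against 132 to 167. The T and B cell markers Cd3d, Cd4 and Ms4a1 sat at the lowest value on all 12 arrays. The part of these cells in the tissue difference was not tested.

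The treatment comparison asked how TCE changed expression in each tissue. In liver, limma called 0 of the 46 genes at an adjusted p of 0.05, and it called 0 of all 10552 genes (0%). At an unadjusted p under 0.05 it counted 5 members, all higher in treated rats, where 14.7% of all genes passed, 8.81% higher and 5.84% lower. The differences were small: 32 members lay above 0 and 14 below, with a median of 0.06 log2 units beside 0.03 for all genes. The members' median was 0.028 without treated replicate 2 and 0.087 without treated replicate 1. For 35 of the 46, the 95% interval lay within 0.5 log2 units either way. Among the other 11 were the 3 inducible subunits.

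Psmd7 had the smallest p in liver. It read 11.57, 11.56 and 11.56 in treated livers and 11.40, 11.39 and 11.38 in control livers. The groups did not overlap, the difference was 0.17 ± 0.05 (SE), and the limma adjusted p was 0.27. It passed the threshold only when dim genes were left in the fit (limma adjusted p = 0.0114), which called 17 of 14217 genes. A dimmer Psmd7 probe set gave -0.08. Psmc3, an ATPase of the base, read 11.66, 11.73 and 11.79 in treated livers against 11.49, 11.57 and 11.44 in controls. Psmb5 read 12.12, 12.17 and 12.14 against 11.89, 12.03 and 11.87. Psmb4 read 13.05, 13.11 and 13.12 against 12.95, 12.93 and 12.90. Each of these groups was separate, with differences of 0.23, 0.21 and 0.17 and limma adjusted p of 0.275, 0.287 and 0.296. Psmd12, a lid scaffold, completed the 5, at 0.31 (adjusted p = 0.325).

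The lower members with the smallest p in liver were Psmg1, Psmd8, Psmb1 and Psmd9. Psmg1 read 10.27, 10.42 and 10.62 in treated livers and 10.82, 10.76 and 10.59 in controls, which overlap, a difference of -0.29 (-0.58 to 0.01). Psmd8 stood at -0.17, Psmb1 at -0.10 and Psmd9 at -0.20, and of these only Psmb1 had separate groups (12.16, 12.18 and 12.20 against 12.33, 12.21 and 12.31). In all, 9 members had groups that did not overlap, 8 higher and 1 lower, beside 20.5% of all genes, 12.2% higher and 8.31% lower. Without treated liver replicate 2 the members at an unadjusted p under 0.05 numbered 1, beside 11.4% of all genes, and without replicate 3 they numbered 2, beside 14.5%. Without control replicate 1 or 2 they numbered 3, beside 12.3% and 12.2%. Further probe sets pointed the other way in liver for Psmc6 (-0.07 against 0.21), Psmd11 (-0.01 against 0.01) and Psme4 (-0.37 against 0.09). A dimmer Psmd14 probe set gave -0.57 in liver, against -0.06 for the brightest one.

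**Figure D3:**
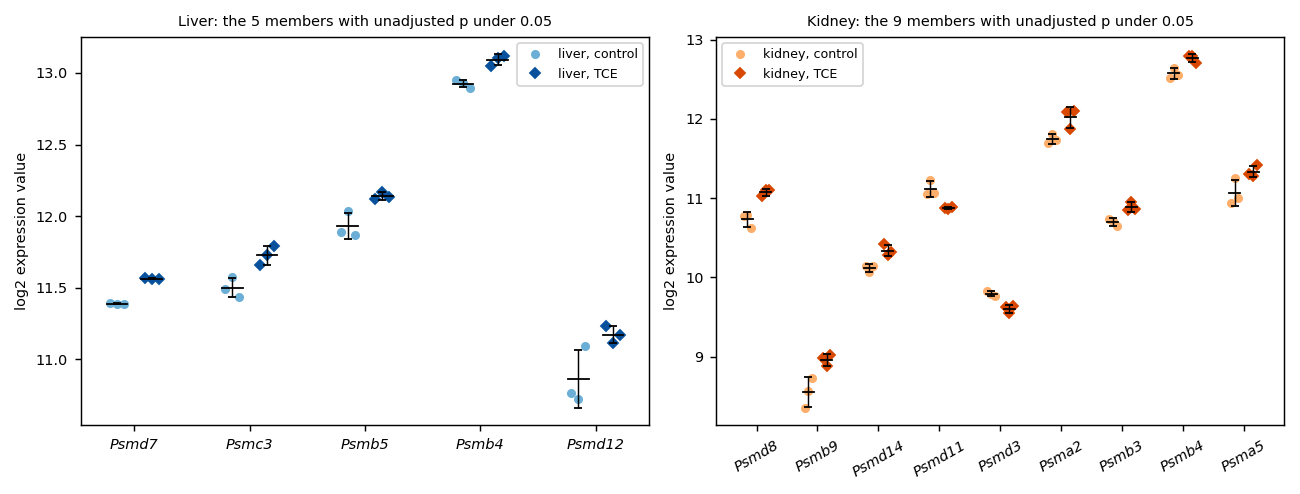
Log2 expression value of each array (points) with group mean and SD (bars, n = 3) for the 5 genes in liver and the 9 genes in kidney with an unadjusted limma p under 0.05. Treated and control arrays do not overlap for any gene shown, and none of these genes passed the adjusted test.

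The inducible subunits did not pass between treated and control livers, and 1 treated array stood above the rest. Psmb8 differed by 0.17 (-0.26 to 0.61), Psmb9 by 0.25 (-0.56 to 1.07) and Psmb10 by 0.29 (-0.30 to 0.88). In treated liver replicate 2 they read 12.35, 12.27 and 9.59, the highest of the 6 liver arrays each time. Psme1 (12.86) and Psme2 (12.02) were highest there too. Without that array the differences were 0.004 for Psmb8, -0.09 for Psmb9 and 0.07 for Psmb10. Of all members, 12 of 46 were highest in that array, as were 2195 of all 10552 genes (20.8%), and of the 30 standard subunits 5. In the comparison with treated kidneys, leaving it out gave Psmb8 4.56, Psmb9 2.29 and Psmb10 1.85.

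That array was also highest for 21 of 25 interferon response genes, 10 of 11 macrophage markers and all 8 general leukocyte markers tested. It was highest too for 8 of 9 MHC class II and dendritic cell markers and 7 of 11 endothelial markers. It was highest for 8 of 16 MHC class I processing genes. Its deviation from the mean of the liver arrays was 0.77 log2 units for the median interferon gene and 0.56 for the median macrophage marker. The summed macrophage level was 12617 to 22139 in treated livers against 14121 to 16426 in controls. Hepatocyte markers were highest there for 1 of 14. The part of these cells in the values of the inducible subunits was not tested.

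**Figure D4:**
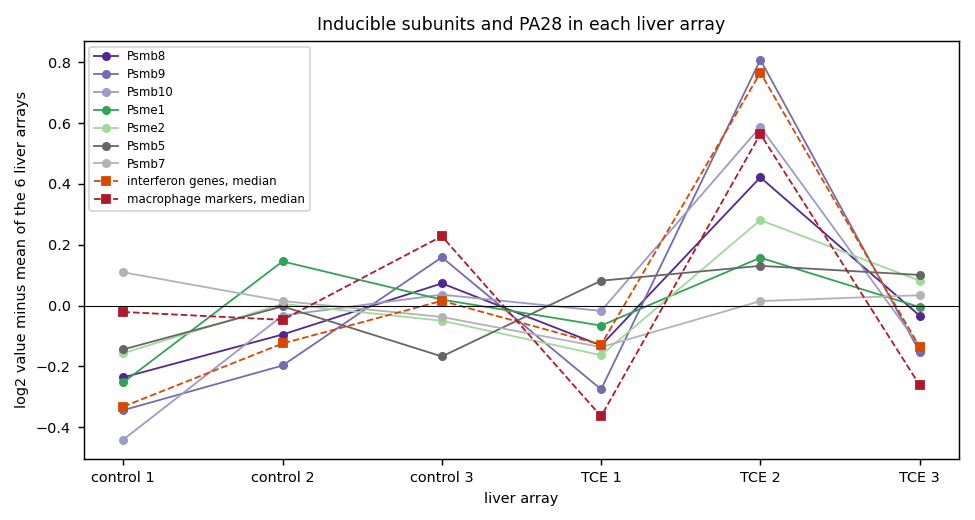
Log2 value of each liver array minus the mean of the 6 liver arrays, for the inducible subunits, the PA28 genes and the standard subunits Psmb5 and Psmb7 (solid lines), and the median over 25 interferon response genes and 11 macrophage markers (dashed). Treated replicate 2 is the highest point for the inducible subunits, for both PA28 genes and for both medians; lines join arrays only to guide the eye.

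In kidney, limma also called 0 of the 46 members and 0 of all 10563 genes (0%). At an unadjusted p under 0.05 it counted 9 members, 7 higher and 2 lower, where 14.8% of all genes passed, 7.56% higher and 7.26% lower. Above 0 lay 33 members and below it 13, with a median of 0.05 beside 0.00 for all genes. Again 35 of 46 intervals lay within 0.5 log2 units either way. Psmd8, a lid subunit, had the smallest p: it read 11.03, 11.10 and 11.10 in treated kidneys and 10.77, 10.79 and 10.63 in controls, with no overlap. The difference was 0.34 ± 0.07 (SE), and the limma adjusted p was 0.217.

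Psmb9 was the inducible subunit that stood out in kidney. It read 8.98, 8.88 and 9.02 in treated kidneys and 8.35, 8.57 and 8.73 in controls. All treated arrays lay above all controls, and the difference was 0.41 ± 0.11 (limma adjusted p = 0.259). Psmb8 (0.06), Psmb10 (0.07), Psme1 (0.02) and Psme2 (0.02) stood near 0 in kidney, and their treated and control values overlapped. Psmd14, the lid deubiquitinase, read 10.42, 10.28 and 10.32 against 10.14, 10.06 and 10.15, a difference of 0.22. A dimmer Psmd14 probe set gave 0.41. Psma2 read 12.09, 11.87 and 12.10 against 11.70, 11.81 and 11.73, a difference of 0.27. Psmb3 and Psmb4 both stood at 0.19 and Psma5 at 0.27, each with separate groups.

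Psmd11 and Psmd3, scaffolds of the lid, were the 2 lower members. Psmd11 read 10.87, 10.87 and 10.89 in treated kidneys and 11.05, 11.23 and 11.07 in controls. The difference was -0.24 ± 0.07 (SE) with a limma adjusted p of 0.264, and a dimmer probe set gave -0.18. Psmd3 read 9.62, 9.55 and 9.63 against 9.83, 9.78 and 9.76, a difference of -0.19 ± 0.06 (adjusted p = 0.266). Next came Psmg3 at -0.18 and Psmc5 at -0.09, with overlapping groups. In all 10 members had separate groups, 8 higher and 2 lower, beside 20.1% of all genes, 10.3% higher and 9.81% lower. Further probe sets pointed the other way for Psmd9 (-0.19 against 0.13) and Psme4 (-0.03 against 0.00). Without control kidney replicate 2, the array with the most hepatocyte signal, 10 members had an unadjusted p under 0.05, beside 15.8% of all genes. With any other single kidney array left out there were 6 to 9 members, the fewest without replicate 1 of either group (10.3% of all genes for the control array and 8.70% for the treated one).

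**Figure D5:**
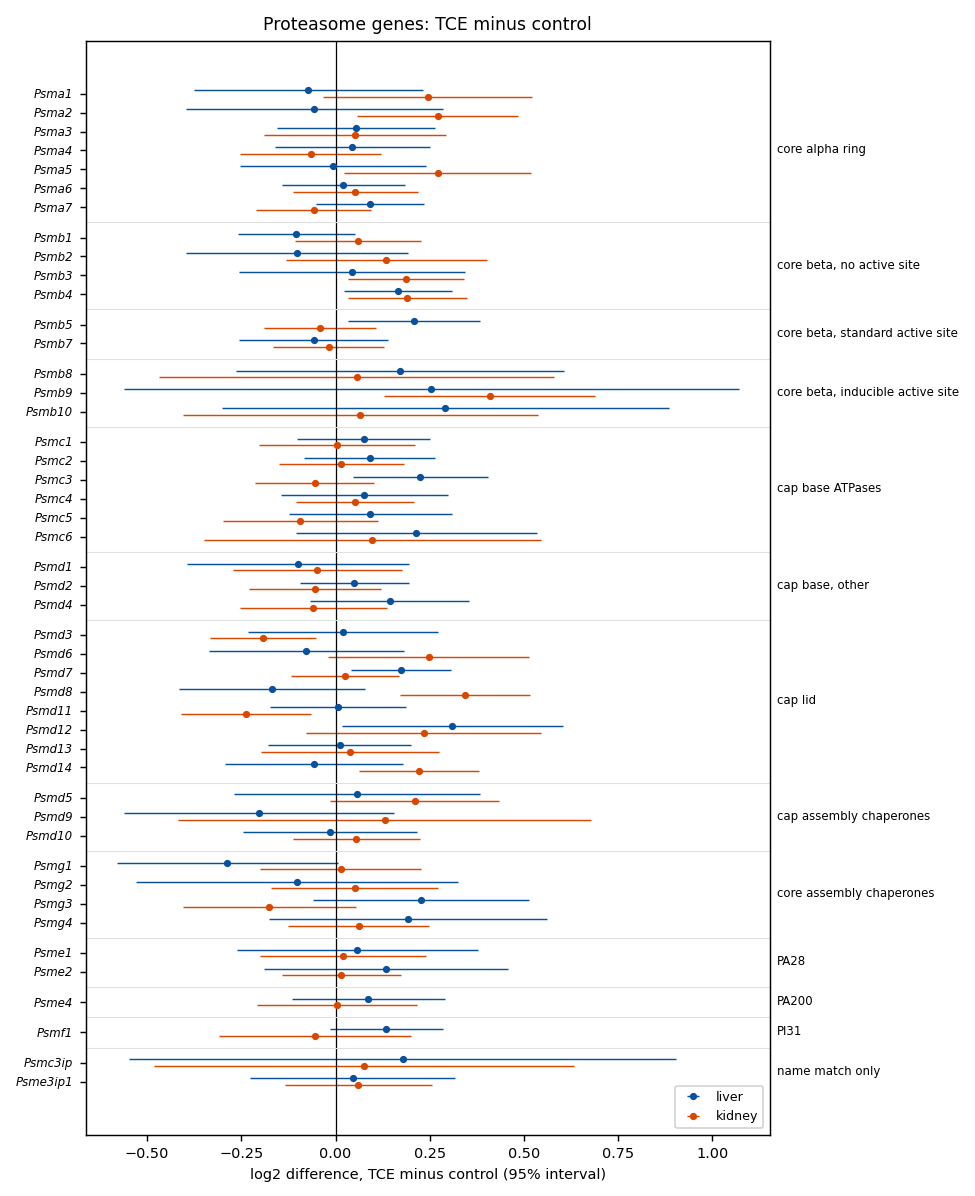
Log2 difference between TCE-treated and control rats of each of the 46 genes, grouped by role, with limma's 95% interval, in liver and in kidney, 3 arrays per group. In each tissue 35 of the 46 intervals lie within 0.5 log2 units of 0, and that of Psmb9 in liver reaches from -0.56 to 1.07.

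RNA integrity values and cell type markers are given beside these small differences. Of the markers, as of all genes, 0 passed the adjusted threshold after treatment in either tissue. The gap between the 3′ and 5′ control probe sets of Gapdh, which widens as RNA degrades, averaged 1.49 log2 units after TCE (SD 0.25) and 0.81 without it (SD 0.04) in liver, with an exact permutation p of 0.1, the smallest that 3 arrays against 3 can give. In kidney the averages were 0.65 (SD 0.19) and 0.97 (SD 0.11), with an exact permutation p of 0.2. The same gap for Actb was 5.33 against 4.64 in liver, where the groups overlapped (exact permutation p = 0.3), and 4.31 against 4.48 in kidney, where they did not (exact permutation p = 0.1). With the gap as a covariate the median member difference in liver was 0.22, and 0 members had an unadjusted p under 0.05 in liver and 4 in kidney, beside 5.94% and 7.24% of all genes. The 3 erythroid genes tested in liver were all below 0 at an unadjusted p under 0.05, beside 5.84% of all genes. The summed level over the 5 erythroid genes on the array was 10962 to 16485 against 20008 to 25672. Neutrophil markers summed to 279 to 347 over 6 genes in treated livers against 119 to 188 in controls. In kidney, all 6 glomerular markers lay above 0, 4 of them at an unadjusted p under 0.05, beside 7.56% of all genes. The summed glomerular level was 2252 to 2877 in treated rats against 1662 to 1902. Renal tubule markers summed to 189309 to 194288 over 15 genes in treated kidneys against 179730 to 187116. Their part in the member values was not tested.

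Whether the treatment difference itself differed between the tissues was tested over all 12 arrays. Limma called 0 members, and 57 of all 10652 genes (0.535%). At an unadjusted p under 0.05 there were 6 members, 4 with the more positive difference in liver and 2 in kidney, beside 17.5% of all genes, 9.99% and 7.48%. The count was 1 without treated kidney replicate 1 (13.2% of all genes). It was 2 without control liver replicate 1 (16.3%) or treated kidney replicate 3 (14.5%). It rose to 9 without treated liver replicate 3 (18.7%) and to 7 without control liver replicate 2 (16.4%) or treated kidney replicate 2 (19.4%). Without treated kidney replicate 1, 0 of all genes passed the adjusted threshold. Psmd8 had the smallest p: its liver difference of -0.17 and its kidney difference of 0.34 lay -0.51 ± 0.13 (SE) apart (limma adjusted p = 0.108). Psmc3 gave 0.28 ± 0.10 (adjusted p = 0.215), Psmg3 0.40 ± 0.16 (adjusted p = 0.231) and Psmb5 0.25 ± 0.10 (adjusted p = 0.244). Psmd14 at -0.28 and Psmd11 at 0.24 completed the 6. A dimmer Psmd14 probe set gave -0.57 in liver and 0.41 in kidney, larger in size than the -0.06 and 0.22 of the brightest one.

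The related pathway lists gave limma 0 genes past the threshold in either tissue after treatment. At an unadjusted p under 0.05, 8.81% of all genes were higher and 5.84% lower in liver, and 7.56% and 7.26% in kidney. By the same cut, the interferon list had 1 gene higher and 1 lower of 25 in liver and 2 higher in kidney. The 16 MHC class I processing genes had 1 higher in liver, Nlrc5, the transactivator of class I genes, at 1.03 (limma adjusted p = 0.243), and 3 lower in kidney. The 12 genes around NRF1 had 2 higher in liver, Mafg, a partner of NRF1 on DNA, at 0.84 (adjusted p = 0.106), and Syvn1, a ubiquitin ligase, at 0.26, and 1 higher in kidney, Nfe2l2 at 0.18. Of 10 ubiquitin and shuttle genes, the ubiquitin-activating enzyme Uba1 was at -0.32 in liver and -0.22 in kidney. The shuttle factor Rad23b at 0.23 and Zfand2b at 0.40 went the other way in kidney. Of 10 further subunits and assembly factors, Sem1 was at 0.20 in liver, and in kidney Txnl1 and Sem1 were at 0.23 and 0.18 and the ubiquitin receptor Adrm1 at -0.29.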

How the data were processed

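The authors deposited expression values on a log2 scale, as the values' range shows, for 31099 probe sets on 12 arrays. The submitters' processing notes name affy and limma; how background and normalization were handled is not given in the sources used here. GEO's platform annotation named the probe sets: 20826 have 1 symbol, 436 several and 9780 none, and 57 controls were left out.

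A gene, read by its brightest probe set, was tested where its mean exceeded the 40th percentile of probe sets (2.43 to 2.55 log2 units). Tests were two-sided, with limma 3.58.1 in R 4.3.3 (lmFit, eBayes) and no covariates; Benjamini-Hochberg adjustment covered every gene tested, at a threshold of 0.05. The script was tested on simulated data. The number of arrays limits the precision. Members and lists were chosen with earlier results of these data known. The inducible subunits, their standard counterparts and PA28 were named whatever their values, as were the members with the 4 smallest p in each direction or, between tissues, the 4 largest differences; other members were named after their values were seen. Promoters came from RefSeq, GRCr8. Nothing in the labels ties same-numbered arrays to 1 rat, and arrays were not paired.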

Additional observations from a re-analysis of the deposited data

Results flagged for a closer look

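Mafg, a small Maf protein that pairs with NRF1 and NRF2, was the only gene among the members and the pathway lists whose treatment difference differed between liver and kidney by limma's test over all genes. The difference of effects was 0.93 ± 0.13 (SE) on the log2 scale (limma adjusted p = 0.0203). Mafg read 7.82, 7.86 and 7.96 in treated livers and 7.02, 7.06 and 7.05 in control livers, and 7.31, 7.54 and 7.33 in treated kidneys against 7.39, 7.65 and 7.44 in control kidneys. A dimmer Mafg probe set gave -0.10 in liver and 0.03 in kidney. With the mean of both probe sets the difference of effects was 0.40 and no longer passed (limma adjusted p = 0.217). The call was also lost without treated kidney replicate 1 (0.89, limma adjusted p = 0.0595), control kidney replicate 1 (0.99, adjusted p = 0.0547) or control kidney replicate 3 (0.96, adjusted p = 0.0514), and with a replicate block (adjusted p = 0.0537). Over all alternatives the adjusted p ranged from 0.0139 to 0.217. The reason was not tested.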

How the results depend on the processing

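No alternative gave a member past the adjusted threshold after TCE except 1 in liver, Psmd7, with dim probe sets left in. That fit called 17 of 14217 genes. The median difference of the members in liver was 0.22 with the Gapdh gap as a covariate; in kidney it was 0.025 after quantile normalization and 0.020 to 0.047 with single arrays left out. Between control tissues the members' median was 0.25 after quantile normalization, 0.78 with centred arrays and 0.35 to 0.40 with single arrays left out; between treated tissues it was 0.76 with centred arrays. Signs of small differences turned. With the Gapdh gap as a covariate, liver gave Psmb9 -0.067, Psmb10 -0.18, Psmb7 0.16, Psmg1 0.21 and Psmd8 0.040. Kidney gave Psmb8 -0.14, Psmb10 -0.44, Psme1 -0.016, Psme2 -0.058 and Psmc5 0.057. In liver that gap did not overlap between treated and control arrays. The liver values of this fit, the median of 0.22 included, therefore cannot tell the gap from treatment. Quantile normalization gave Psme1 -0.00052 in kidney, Psmb7 0.034 for the difference of effects and Psmb5 -0.11 between control tissues. With single arrays left out, liver ranged from -0.086 to 0.46 for Psmb9 and from -0.054 to 0.15 for Psme1. Kidney ranged from -0.15 to 0.19 for Psmb8, -0.024 to 0.22 for Psmb10, -0.051 to 0.0081 for Psmb7, -0.055 to 0.094 for Psme1 and -0.024 to 0.048 for Psme2. The difference of effects ranged from -0.053 to 0.32 for Psmb8, -0.49 to 0.047 for Psmb9, -0.073 to 0.014 for Psmb7 and -0.074 to 0.12 for Psme1, and the control tissue difference from -0.032 to 0.050 for Psmb5. The cause was not tested. With the replicate number as a block, 26 members passed between control tissues (25 higher, 1 lower, beside 28.4% and 37.2% of all genes). Between treated tissues 30 passed (27 higher, 3 lower, beside 29.6% and 35.2%), and 0 in the other comparisons. Members at an unadjusted p under 0.05 then numbered 0 in liver (11.9% of all genes) and 4 in kidney (11%). For the difference of effects they numbered 4 (16.8%). Same-numbered arrays correlated at -0.095 to 0.080 in their deviations, none over 0.1. Differently numbered treated and control kidney arrays, which come from different rats, ranged from -0.168 to 0.208. Values under 0.1 therefore also occur without a shared rat. Between control liver and control kidney (0.058, 0.048 and 0.080) every array correlated best with its own number, a hint from the data only; between treated tissues, and between treated and control arrays of a tissue, not every array did. A fit of all 12 arrays called 182 genes in liver and 20 in kidney, with 0 members in each. With 3 arrays per group, differences as small as most TCE values here could not be told from the spread.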
